A study of Mus musculus with 56 samples.

Results

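Esrp1 and Esrp2 are the 2 genes that encode the epithelial splicing regulatory proteins, and their RNA was followed here in mouse fibroblasts on their way to pluripotency, with more or less of CTCF, a protein that bounds chromatin loops. They were taken by name from each deposited expression table, where each has 1 row: 2 of 13451 genes in the table of sorted cells, 2 of 12935 in a day 10 table and 2 of 13861 in a table of fibroblasts and stem cells. The cells were embryonic fibroblasts (MEFs) of the OG2 line, whose Oct4-GFP transgene reports late pluripotency. In the sorted series all cells, day 0 included, belonged to cultures given a doxycycline-inducible lentivirus with Oct4, Sox2, Klf4 and Myc (OSKM) on 1 transcript, a retrovirus with the rtTA activator, and an shRNA. The shRNA was either a control against luciferase or one against Ctcf. Day 0 cells were taken whole. Thy1+, SSEA1+ and SSEA1-Thy1- (double-negative) cells were sorted on days 3, 6 and 9, and GFP+ cells on day 12, so that each shRNA has 11 populations of 2 libraries. In the day 10 series, MEFs received retroviral OSKM with an empty vector (the control), with a CTCF vector, or with that vector plus an shRNA to Smarca5, the ATPase of ISWI chromatin remodellers. Each of these groups has 2 libraries. Another 4 day 10 samples, 2 with a control shRNA and 2 with an shRNA to Ctcf, enter only through a comparison that the authors deposited. Reprogramming cells were kept in stem cell medium with vitamin C. MEFs and induced pluripotent stem cells (iPSCs) had 1 library each. Whether the libraries of a group stem from separate cultures is not given in the labels, so the p-values measure only the spread between libraries, which may be technical.

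As background, both proteins bind RNA through RNA recognition motifs and act on alternative exons that flank G- and U-rich elements. In epithelia they favour the epithelial isoforms of transcripts such as Fgfr2, Cd44, Ctnnd1 and Enah, and their loss lets mesenchymal isoforms return. Zeb1 and Zeb2, transcription factors that repress epithelial genes, are known repressors of both. Fibroblasts that are reprogrammed pass through a mesenchymal-to-epithelial transition, in which E-cadherin and other junction genes come on. The tables used here hold 1 value per gene, so they carry the level of a transcript and not which isoform was made.

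Levels are scores, tag counts that the authors normalized and rounded, and they were compared within a table. Totals over genes ran from 26119844 to 28981763 in the 44 sorted libraries and from 18206150 to 18403408 in the 6 day 10 libraries. Ctcf was lower with its shRNA in each of the 11 populations, though not to the same extent. Its mean score was 810 with control and 568 with Ctcf shRNA at day 0. In day 3 SSEA1+ cells it was 1397.5 and 788, and in day 12 GFP+ cells 2411 and 686. The marker lists followed the labels: the summed scores of 8 fibroblast genes were 136097 and 148078 in the day 0 control libraries and 18375 and 18386 at day 12. The summed scores of 8 pluripotency genes were 8 and 9 at day 0, with Lin28a at 0, and 38924 and 39616 at day 12. Bulk values cannot tell fewer cells of a type from less RNA per cell.

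Esrp1 (ENSMUSG00000040728) lies on the minus strand of chromosome 4, at GRCm38 4:11331933-11386783, and its annotated exons cover 6305 bases. Esrp2 (ENSMUSG00000084128) lies on the minus strand of chromosome 8, at GRCm38 8:106130319-106136974, with exons of 4340 bases. The library kit named in the labels does not mark strand, and each gene overlaps a gene on the opposite strand. The lincRNA gene Gm26663 shares 11021 bases of the Esrp1 locus, while 1810019D21Rik shares 1575 bases and Nfatc3 219 bases of the Esrp2 locus. Reads from those overlaps cannot be assigned to a strand. Promoter and protein sequences of both genes were not analysed here.

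With control shRNA, Esrp1 went from near absence in the starting fibroblasts to a mean score of 1427 ± 12.7 (SD, n = 2) at day 12. The day 0 libraries had scores of 0 and 1, and the day 12 GFP+ libraries 1436 and 1418. The log2 fold change was 9.98 (SE 0.21, adjusted p = 2.36e-24, limma with Benjamini-Hochberg adjustment), in a contrast where 80.2% of all genes tested were called at an adjusted p below 0.05. Fold changes here are differences of log2(score + 1), and with a level near 0 their size rests on that added 1: with 8 added in its place the change was 7.40, and the change from day 0 to day 3 SSEA1+ cells given below was 2.80. Most of the rise was made by day 6 in the SSEA1+ cells. In them Esrp1 had scores of 48 and 54 on day 3. On day 6 the libraries had 1431 and 1468, and on day 9 they had 1508 and 1556. The steps were 5.20 from day 0 to day 3 (adjusted p = 2.83e-18, background 72.2% of genes called) and 4.80 from day 3 to day 6 (3.02e-16, background 48.8%). From day 6 to day 9 the difference was 0.08 (95% interval -0.34 to 0.50, adjusted p = 0.773, background 49.5%), and from day 9 SSEA1+ to day 12 GFP+ cells it was -0.10 (-0.52 to 0.32, adjusted p = 0.691, background 59.1%). Neither of these passed.

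**Figure D1:**
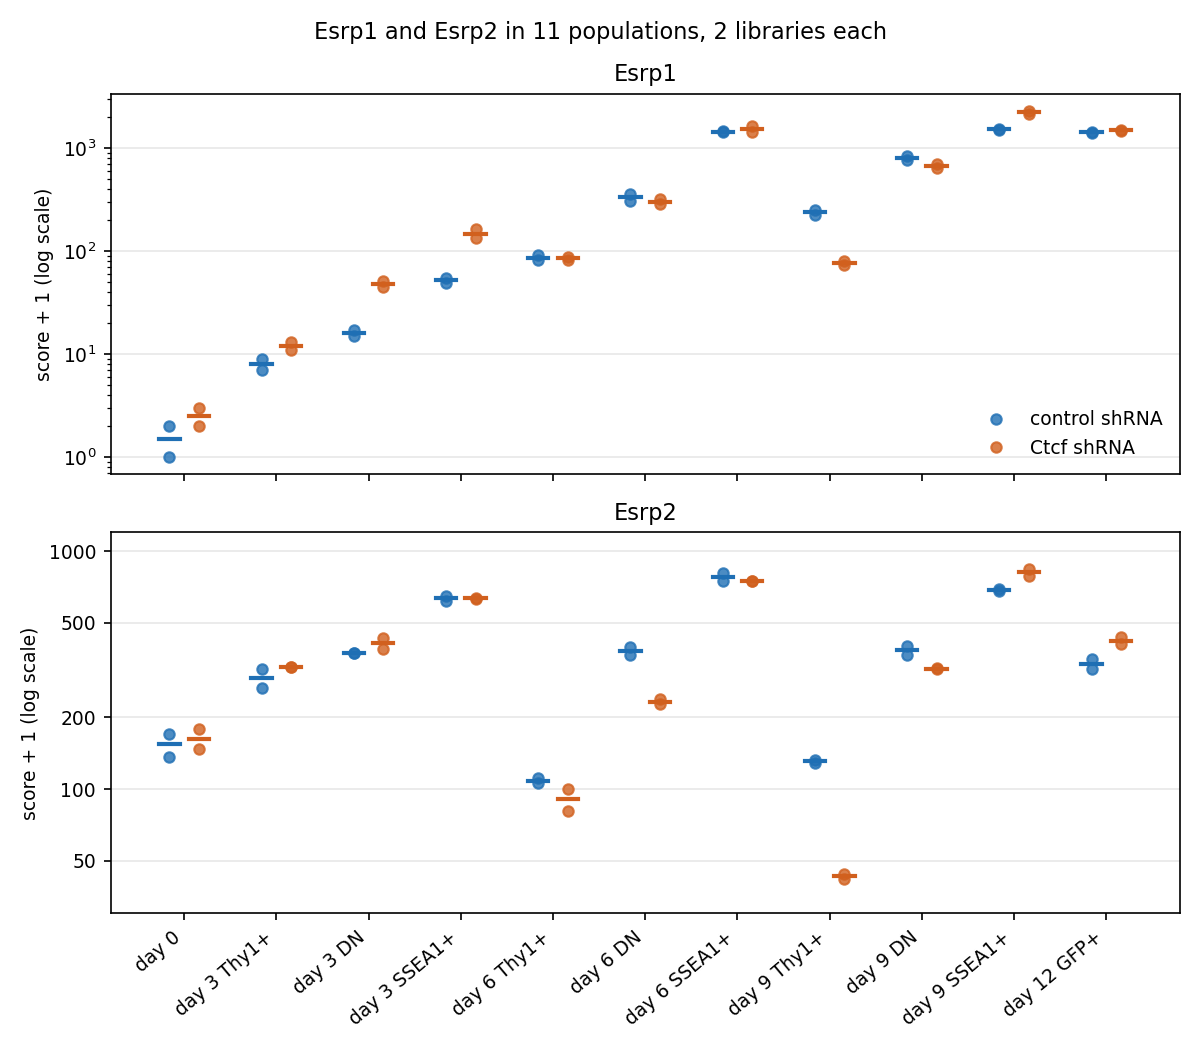
Scores of Esrp1 (top) and Esrp2 (bottom) plus 1 on a log axis in the 11 populations, with a point per library and a line at the mean of 2, for control shRNA (blue) and Ctcf shRNA (orange); DN is SSEA1-Thy1-. Esrp1 spans the range from 0 to 2312, Esrp2 from 41 to 844, and the Ctcf shRNA libraries lie below the controls for both genes in day 9 Thy1+ and day 9 DN cells, of which the first passed the test.

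Esrp2 was already present in fibroblasts and rose less, with most of its rise made by day 3 in SSEA1+ cells. Its day 0 control libraries had 170 and 136, its day 3 SSEA1+ libraries 648 and 616, and those of day 6 808 and 748. The highest mean was thus reached in day 6 SSEA1+ cells, 778 ± 42.4 (SD, n = 2). From day 0 to day 3 SSEA1+ cells Esrp2 rose by 2.05 (SE 0.11, adjusted p = 1.54e-15). The step to day 6 was 0.30 (adjusted p = 0.0235), a call that is lost without replicate 2 of the day 3 or replicate 1 of the day 6 SSEA1+ control group (0.26 and 0.24, adjusted p = 0.120 and 0.154). The step to day 9 was -0.19 (95% interval -0.41 to 0.04, adjusted p = 0.156). Day 12 GFP+ cells then had 319 and 352, below both day 9 SSEA1+ libraries at 677 and 690. That fall was -1.03 (SE 0.11, adjusted p = 8.08e-09), so that over the whole course from day 0 to day 12 Esrp2 rose by 1.13 (adjusted p = 2.46e-10).

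The cells that kept Thy1, the surface marker of fibroblasts, moved the genes in opposite directions between days 3 and 9. Esrp1 had 6 and 8 in day 3 Thy1+ control cells, 81 and 90 on day 6, and 252 and 224 on day 9. The 3 days do not overlap. It rose by 2.49 from day 0 to day 3 (adjusted p = 1.25e-10, background 42.3%) and by 4.91 from day 3 to day 9 (1.42e-16, background 56.2%). The first step is 0.82 with 8 added to the scores and 1.39 after quantile normalization. For Esrp2 the day 3 libraries had 319 and 265, those of day 6 110 and 105, and those of day 9 132 and 128, so that day 3 stood highest. It rose by 0.93 from day 0 to day 3 (adjusted p = 7.08e-08) and fell by 1.16 from day 3 to day 9 (1.19e-09). In the same Thy1+ step from day 3 to day 9, 4 of 6 repressors of the epithelial program rose and 0 fell (median 0.60), among them Zeb1 (0.99, 887.5 to 1769.5) and Zeb2 (0.63, 881 to 1359.5). Of 21 epithelial structure genes, 17 rose and 3 fell (median 2.56), among them Cdh1 (3.47), which encodes E-cadherin, and the adhesion gene Epcam (3.16). The median of all genes was -0.08. All 8 fibroblast markers (median 1.69) and all 8 pluripotency markers (median 4.56) rose in the same step. Of 4 keratinocyte markers 3 fell and Krt17 rose (median -1.35), with sums of 1172 and 1285 on day 3, 226 and 236 on day 6, and 248 and 313 on day 9. The part of these markers in the Esrp values was not tested.

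Within a day both genes were ordered SSEA1+ over double-negative over Thy1+ cells. At day 6, Esrp1 had 310 and 359 in double-negative cells, between the Thy1+ and SSEA1+ values given above. Esrp2 had 364 and 394 there. All 9 contrasts between the populations of a day passed the test for both genes. For SSEA1+ against Thy1+ cells the Esrp1 differences were 2.71, 4.07 and 2.68 at days 3, 6 and 9, and those of Esrp2 1.12, 2.84 and 2.39. The share of all genes called in these contrasts was 64.2%, 76.2% and 68.8%. Double-negative against Thy1+ cells gave 1.01, 1.95 and 1.76 for Esrp1 and 0.36, 1.81 and 1.55 for Esrp2, with 28.3%, 64.3% and 54.5% of genes called. The Esrp1 value of day 3 is 0.62 with 8 added to the scores. The Esrp2 call at day 3 (adjusted p = 0.0125) is lost without either double-negative library (adjusted p = 0.0582 and 0.0624) or without Thy1+ replicate 2 (0.23, adjusted p = 0.226). SSEA1+ against double-negative cells gave 1.70, 2.12 and 0.93 for Esrp1 and 0.75, 1.04 and 0.84 for Esrp2, with 44.7%, 41.4% and 26.8% of genes called. A share of 26.8% to 76.2% of all genes was called in these contrasts, so a call alone sets neither gene apart.

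The order of all 11 control populations differed between the genes. For Esrp1 it ran from day 0 through day 3 Thy1+, double-negative and SSEA1+ cells to day 6 Thy1+, day 9 Thy1+, day 6 double-negative and day 9 double-negative cells. At its top were day 12 GFP+, day 6 SSEA1+ and day 9 SSEA1+ cells. The day 12 and day 6 SSEA1+ libraries overlap, and no other neighbours in the order do. For Esrp2 the lowest populations were day 6 Thy1+ (107.5 ± 3.54), day 9 Thy1+ (130 ± 2.83) and day 0 (153 ± 24.0). Day 3 Thy1+ overlaps day 12 GFP+, and the double-negative cells of days 3, 6 and 9 (374, 379 and 382) overlap each other in turn. The 3 SSEA1+ populations stand above all others. Per kilobase of annotated exon, Esrp2 was the more abundant of the pair at day 0 (35.3 against 0.0793 score per kilobase), and Esrp1 was at day 12 (226 against 77.3). Of the summed Esrp level per kilobase, Esrp1 made up 0.224% at day 0, 5.26%, 56.2% and 60.7% in SSEA1+ cells of days 3, 6 and 9, and 74.5% at day 12. The single iPSC library, counted separately, had nearly equal raw reads for Esrp1 (140) and Esrp2 (141). With its shorter exons Esrp2 was thus the more abundant per kilobase there, so the share differs between data sets.

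Across the 11 control population means of log2(score + 1), Pearson's r between Esrp1 and Esrp2 was 0.45. Set against 6492 genes with a peak at or above the median, Esrp2 would rank 2068 in likeness to Esrp1. The peak of Esrp2 itself was below that median. The 5 genes closest to Esrp1 were Trh, a hypothalamic hormone precursor, the protease inhibitor Spint1, Epcam, the peptide hormone gene Apela and Cdh1, with r from 0.98 to 0.99. Their scores at day 0 and day 12 were 1 and 1536 for Trh, 14 and 915 for Spint1, and 2 and 6263 for Cdh1. The genes closest to Esrp2 were Fastkd2, Mettl5, Gtpbp10, Dnajc2 and Nudt5, with r from 0.96 to 0.99. Over the 22 means of both shRNAs 3 of the 5 genes named for Esrp1 stay among its closest 5, and by Spearman's rho 2 do, while for Esrp2 0 of 5 do under either measure. These correlations describe 11 population means that share their cultures and normalization. Against the repressors, r was -0.48 with Zeb1 and -0.68 with Zeb2 for Esrp1, and -0.87 and -0.82 for Esrp2. Against Cdh1 it was 0.98 for Esrp1 and 0.47 for Esrp2, and against Grhl2, a transcription factor of epithelial junction genes, 0.97 and 0.43.

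The epithelial lists also changed between day 0 and day 12, in a contrast that called 80.2% of all genes. A call alone thus does not set these lists apart. Of 21 epithelial structure genes 20 rose and 1 fell (median 5.94), with Cdh1 at 11.11, Epcam at 9.04 and Ap1m2, listed at 0 in the day 0 libraries, at a score of 538.5 at day 12. The exception was Krt19 (-1.63), a keratin. All 11 epithelial transcription factors rose (median 4.34), among them Grhl2 (8.88), Elf3 (7.33), Ovol1 (2.96) and Klf4 (2.21), whose reads include the transgene. Ovol2 and Ehf, listed at 0 at day 0, stood at 56 and 229 at day 12. All 6 repressors fell (median -3.68): Zeb1 (-1.65), Zeb2 (-4.19), Snai1 (-1.93), Snai2 (-4.99), Twist1 (-3.17) and Twist2 (-5.52). The median over all genes was -0.01. All 4 keratinocyte markers tested rose as well (median 3.81), with sums of 190 and 197 at day 0 and 980 and 983 at day 12. Among markers of other cells, the summed score of 5 macrophage genes was 3867 and 4409 at day 0 and 599 and 632 at day 12, that of 4 endothelial genes 1154 and 1192, then 1389 and 1545, and that of 2 endoderm genes 416 and 433, then 116 and 143. Their part in the Esrp changes was not tested.

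Of 26 other splicing regulators, 17 rose and 3 fell from day 0 to day 12 (median 0.82), beside 80.2% of all genes called. Esrp1 had a larger log2 change than any of them. Next came Nova2 (5.55, from 2 to 131.5), Rbpms2 (3.05) and Rbm47 (2.93, from 64.5 to 495). Rbm47, an RNA-binding protein linked to epithelial splicing, did not follow Esrp1 on the way: its score was 5 in day 3 SSEA1+ cells, 24 at day 6 and 164 at day 9. The 3 that fell were Mbnl1 (-2.62), Celf2 (-2.10) and Mbnl2 (-2.04); the muscleblind proteins Mbnl1 and Mbnl2 favour splicing patterns of differentiated cells. Ptbp1, a repressor of many exons, rose by 0.68. Qk (0.08, adjusted p = 0.464) and Rbfox2 (-0.03, adjusted p = 0.704), which act in mesenchymal splicing, did not pass.

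**Figure D2:**
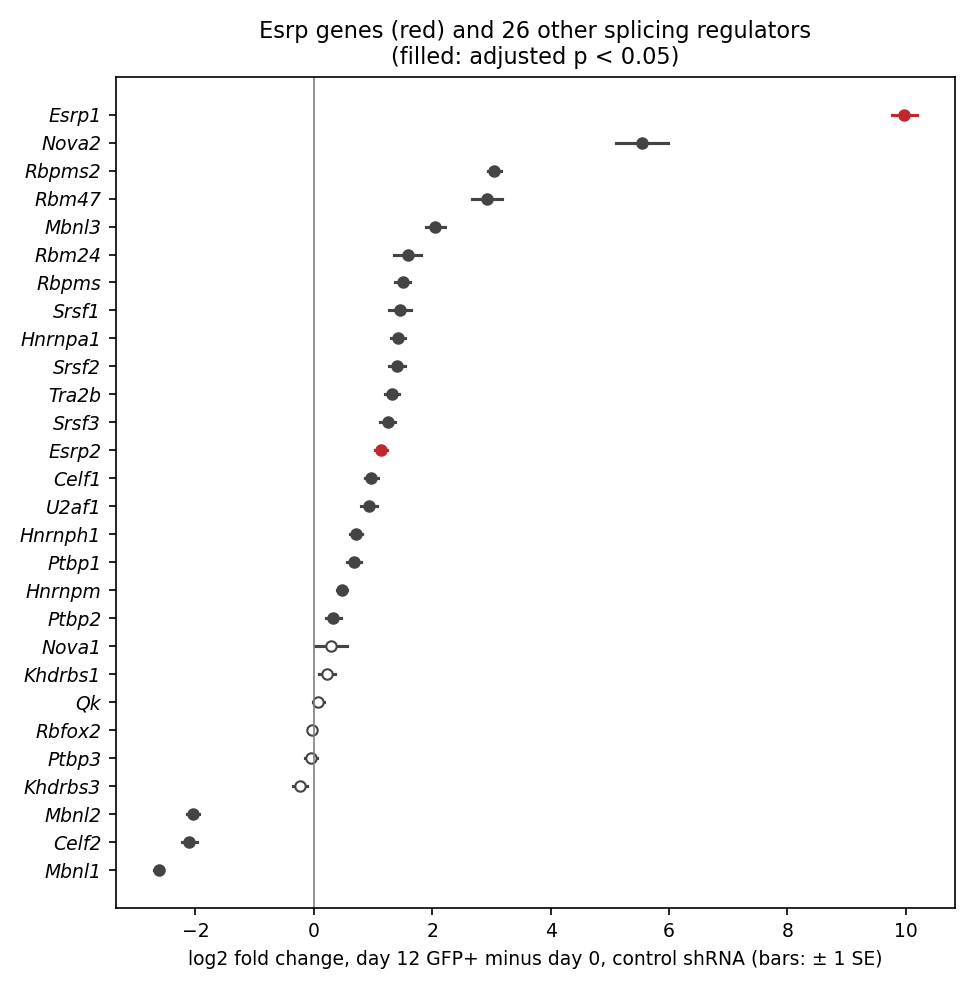
Log2 fold change from day 0 to day 12 GFP+ cells with control shRNA for Esrp1 and Esrp2 (red) and 26 other splicing regulators, sorted by size, with bars of ± 1 SE and filled points at an adjusted p below 0.05. Esrp1 at 9.98 lies furthest right, Esrp2 at 1.13 lies among the middle of the list, and Mbnl1 at -2.62 lies furthest left.

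Genes whose transcripts the Esrp proteins are known to splice were measured as whole-gene levels. Of 13 such genes, 5 rose and 6 fell from day 0 to day 12 (median 0.10), a share near the 80.2% of all genes called. Enah, an actin regulator, rose by 2.49, and Ralgps2 (2.41), Nf2 (1.65), Magi1 (1.55) and Scrib (0.99) rose too. Cd44, a hyaluronan receptor, fell from 23742 to 1569 (-3.91). Osbpl3 (-1.72), Fgfr2 (-0.72), Map3k7 (-0.64), Exoc7 (-0.44) and Slk (-0.32) fell too, while Ctnnd1 (0.10, adjusted p = 0.406) and Arhgef11 (0.16, adjusted p = 0.151) did not pass.

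With Ctcf shRNA, Esrp1 was higher in 2 populations of day 3 and lower in 1 of day 9. Esrp1 was higher with Ctcf shRNA in day 3 SSEA1+ cells, where the shRNA libraries had 132 and 162 and the controls 48 and 54, and in day 3 double-negative cells, with 50 and 44 against 14 and 16. In day 9 Thy1+ cells it was lower, with 80 and 73 against 252 and 224. None of these groups overlap. The log2 fold changes were 1.50 (SE 0.21, adjusted p = 2.03e-05, background 6.78%), 1.58 (adjusted p = 1.10e-05, background 4.88%) and -1.62 (adjusted p = 1.55e-06, background 19.6%). At day 0 the contrast also passed (0.79, adjusted p = 0.0207, background 6.68%), but it compares scores of 1 and 2 with 0 and 1, which overlap. It is 0.16 (adjusted p = 0.418) with 8 added to the scores, and it is lost without replicate 2 of the day 0 shRNA group (0.50) or replicate 1 of the controls (0.29).

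Esrp2 answered Ctcf shRNA in other populations, apart from day 9 Thy1+ cells. There its scores were 43 and 41 against 132 and 128 in the controls, a change of -1.61 (SE 0.11, adjusted p = 2.34e-11) next to the -1.62 of Esrp1. In day 6 double-negative cells Esrp2 had 237 and 226 against 364 and 394 (-0.71, adjusted p = 7.82e-06, background 42.1%), where Esrp1 had 284 and 318 against 310 and 359 (-0.15, 95% interval -0.57 to 0.27). In day 12 GFP+ cells Esrp2 had 435 and 405 against 319 and 352 (0.32, adjusted p = 0.0148, background 49.2%), where Esrp1 had 1520 and 1478 against 1436 and 1418 (0.07, -0.35 to 0.49). The Esrp2 call at day 12 is lost without replicate 1 of the shRNA group (0.27, adjusted p = 0.110) or replicate 1 of the controls (0.25, adjusted p = 0.136). At day 3, where Esrp1 was higher, Esrp2 stood at 636 and 629 against 648 and 616 in SSEA1+ cells (0.00, -0.22 to 0.22). It stood at 429 and 388 against 374 and 374 in double-negative cells (0.13, -0.10 to 0.35). The difference between the genes was not tested.

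The remaining contrasts gave no call. At day 0 Esrp2 had 147 and 177 against 170 and 136, which overlap (0.08, adjusted p = 0.699). In day 3 Thy1+ cells Esrp1 had 12 and 10 against 6 and 8 (0.59, adjusted p = 0.119) and Esrp2 had 324 and 326 against 319 and 265 (0.16, adjusted p = 0.556), with 4.02% of genes called. In day 6 Thy1+ cells Esrp1 had 81 and 87 against 81 and 90, and Esrp2 99 and 80 against 110 and 105, the latter without overlap. The changes were -0.02 for Esrp1 and -0.27 for Esrp2 (adjusted p = 0.965 and 0.0955, background 14.4%), and neither passed. In day 6 SSEA1+ cells Esrp1 had 1635 and 1430 against 1431 and 1468, and Esrp2 750 and 747 against 808 and 748, and both pairs of groups overlap. The changes there were 0.08 and -0.05 (adjusted p = 0.840 and 0.773, background 22.2%). Without replicate 1 of the day 6 Thy1+ shRNA group the Esrp2 change is -0.42 and passes (adjusted p = 0.0345). In day 9 SSEA1+ cells Esrp1 had 2312 and 2158 against 1508 and 1556, the highest scores it reached in any library (0.54, adjusted p = 0.0812, background 13.8%). With 8 added to the scores that change passes (0.54, adjusted p = 0.00114). Esrp2 had 784 and 844 against 677 and 690 in these cells (0.25, adjusted p = 0.137). The groups of both genes do not overlap there, though neither passed. In day 9 double-negative cells Esrp1 had 636 and 698 against 766 and 845, and Esrp2 322 and 318 against 366 and 398. These groups do not overlap either, and the changes of -0.27 and -0.25 did not pass (adjusted p = 0.343 and 0.0805, background 28.0%).

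**Figure D3:**
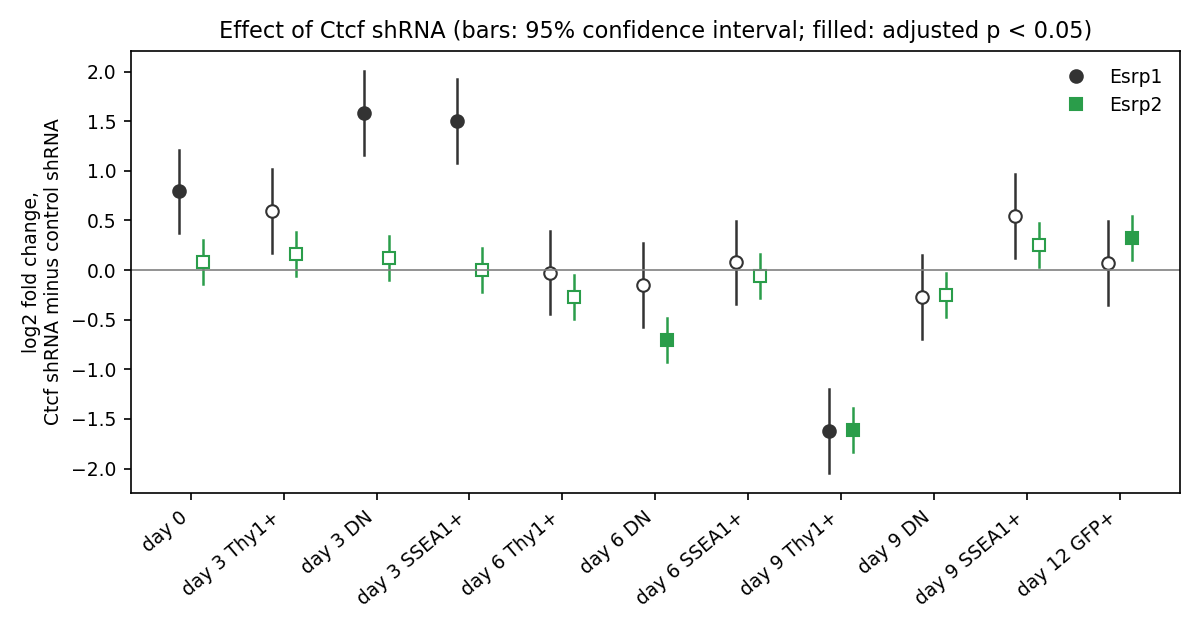
Log2 fold change with Ctcf shRNA for Esrp1 (circles) and Esrp2 (squares) in each population, with 95% confidence intervals and filled symbols at an adjusted p below 0.05. The day 3 SSEA1+ and double-negative values of Esrp1 (1.50 and 1.58) lie above those of Esrp2, and both genes lie near -1.6 in day 9 Thy1+ cells, at -1.62 and -1.61.

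The effect of Ctcf shRNA depended on the population for both genes. A moderated F test of any difference over the 11 populations gave F = 18.75 for Esrp1 (adjusted p = 5.03e-08) and 26.67 for Esrp2 (1.83e-09), in a test that called 56.0% of genes. The Esrp1 value moves with the setting: F is 32.5 without replicate 1 and 35.4 without replicate 2 of the day 0 controls, 48.2 with 8 added to the scores and 9.47 after quantile normalization, and each of these passes. At day 9 the effect in SSEA1+ cells exceeded that in Thy1+ cells by 2.17 for Esrp1 (SE 0.29, adjusted p = 6.94e-06) and 1.86 for Esrp2 (SE 0.15, 3.87e-09), with 19.7% of genes called. At day 3 this difference was 0.91 for Esrp1 (adjusted p = 0.300) and -0.16 for Esrp2 (0.955), with 0.201% called. With 8 added to the scores the day 3 difference of Esrp1 is 1.05 and passes (adjusted p = 0.00227). At day 6 it was 0.10 and 0.21 (0.909 and 0.491, background 5.68%). The effect at day 12 minus that at day 0 was -0.72 for Esrp1 (adjusted p = 0.0504) and 0.24 for Esrp2 (0.215), with 39.2% called. That Esrp1 difference passes without replicate 1 of the day 0 shRNA group (-1.01, adjusted p = 0.00853) or replicate 2 of the day 0 controls (-1.22, adjusted p = 0.000357). Averaged over the 11 populations, Esrp1 was 0.28 higher (SE 0.06, adjusted p = 0.000424) and Esrp2 lower (-0.18, SE 0.03, adjusted p = 5.09e-05), with 52.0% of genes called. With 8 added to the scores the Esrp1 mean is 0.17. These means join effects of opposite sign. The fall of Ctcf itself also differed in size between populations, and its part in these differences was not tested.

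In day 9 Thy1+ cells epithelial genes were lower together with Esrp1 and Esrp2. Of 21 epithelial structure genes 13 were lower with Ctcf shRNA and 1 was higher (median -1.40, against 0.02 over all genes). This contrast called 19.6% of all genes. Epcam went from 356 to 103 (-1.84, SE 0.20), Cdh1 from 978 to 292 (-1.74, SE 0.28) and Spint1 from 185.5 to 50 (-1.87). The 1 higher gene was Jup (0.31), which encodes plakoglobin of desmosomes and adherens junctions. Of 11 epithelial transcription factors 5 were lower and 0 higher (median -0.79): Tfap2c (-2.02), Grhl2 (-1.37), Klf4 (-1.16), Grhl1 (-0.89) and Ovol2 (-0.79). Of the 6 repressors only Snai2 passed (0.55, adjusted p = 0.0118), while Zeb1 stood at 0.06 and Zeb2 at 0.27 (adjusted p = 0.780 and 0.216). The pluripotency markers were lower too, 4 of 8 by the test (median -1.67). The summed score of 8 pluripotency genes was 542 and 601 in the controls and 142 and 212 with Ctcf shRNA. The fibroblast sum was 345483 and 358716 against 325058 and 365567, and the sum of 4 keratinocyte genes was 248 and 313 against 199 and 273, and both of these overlap between the shRNAs. Their part in the Esrp result was not tested. Rbm47 (0.25, adjusted p = 0.539) did not pass there, and Mbnl1 was higher (0.48).

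In day 9 SSEA1+ cells the same lists stood differently. Of the 21 epithelial structure genes 2 were higher, St14 and Dsp, and 0 lower (median 0.20, against 0.02 over all genes). That is below the 13.8% of all 13451 genes called there in either direction, of which 645 were higher and 1216 lower. Of the 6 repressors 5 were lower, with Zeb1 from 362 to 155 (-1.22, adjusted p = 1.75e-08) and Zeb2 from 256 to 149 (-0.79). All 8 fibroblast markers were lower (median -1.31), and their sum was 47822 and 49009 in the controls and 20970 and 22767 with Ctcf shRNA. The pluripotency sum was 5093 and 5249 against 6586 and 6890, though 0 of 8 of these genes passed. The keratinocyte sum was 2044 and 2089 against 2894 and 3002, and the trophectoderm sum 1479 and 1523 against 1928 and 2114. The endothelial sum was higher too, and the macrophage and endoderm sums overlap. The share of fibroblasts in these cells was not measured, and the part of these markers in the Esrp values was not tested.

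**Figure D4:**
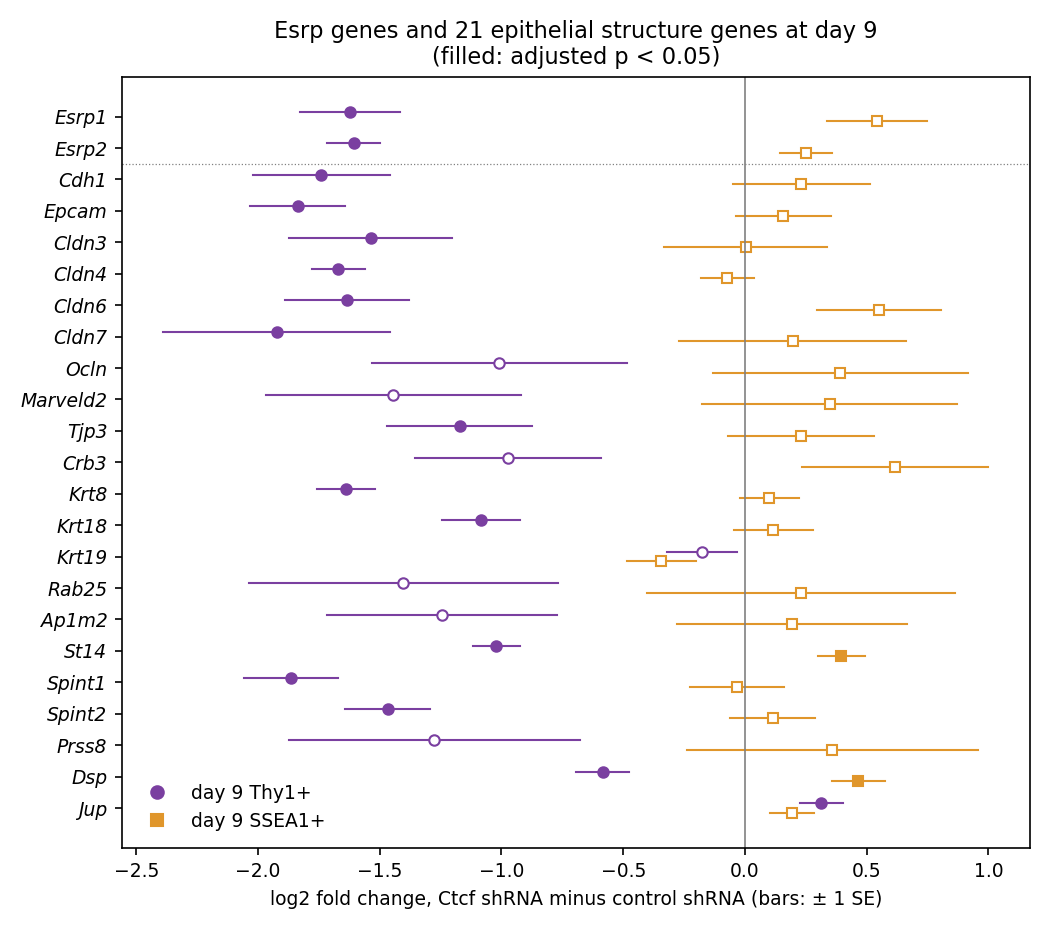
Log2 fold change with Ctcf shRNA at day 9 in Thy1+ cells (purple circles) and SSEA1+ cells (orange squares) for Esrp1, Esrp2 and 21 epithelial structure genes, with bars of ± 1 SE and filled symbols at an adjusted p below 0.05. In Thy1+ cells Esrp1 (-1.62) and Esrp2 (-1.61) lie among 13 epithelial genes that were lower, while in SSEA1+ cells only St14 and Dsp passed.

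Beside the higher Esrp1 of day 3, in SSEA1+ cells 4 of 21 structure genes were higher and 0 lower (median 0.34, against 0.00): Jup (0.75), Krt8 (0.65), Dsp (0.61) and St14 (0.43). This contrast called 6.78% of all genes. Cdh1 (0.70, adjusted p = 0.155) and Epcam (0.23, adjusted p = 0.607) did not pass. Of the 6 repressors 0 passed in limma (0 at an unadjusted p below 0.05), with Zeb1 at -0.11 and Zeb2 at 0.27. In double-negative cells, where 4.88% of all genes were called, 4 structure genes were again higher and 0 lower (median 0.46), with Dsp at 0.81 and Jup at 0.70. Keratinocyte genes were higher with Ctcf shRNA in these populations, 3 of 4 in SSEA1+ cells (median 1.37) and 4 of 4 in double-negative cells (median 1.89). Krt14, a keratin of the basal layer of skin, went from 5 to 99 in SSEA1+ cells (4.12) and from 13.5 to 126 in double-negative cells (3.15). Keratinocyte genes were also higher where Esrp1 did not pass: 3 of 4 in day 3 Thy1+ (median 1.33), 4 of 4 in day 6 Thy1+ (1.64) and 4 of 4 in day 6 double-negative cells (1.51). Those contrasts called 4.02%, 14.4% and 42.1% of all genes. The keratinocyte sum on day 3 was 276 and 368 against 682 and 718 in SSEA1+ cells, and 697 and 706 against 1402 and 1464 in double-negative cells. These 4 are Krt14, Krt17, Krt6a and Sfn, while Krt5, Krt15 and Trp63 were not analysed here in sorted cells. The part of these genes in the Esrp1 result was not tested. Among splicing regulators Rbm47 was also higher in SSEA1+ cells, from 5 to 14 (1.41, adjusted p = 0.000714).

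Lists are given here for the populations where Esrp2 alone passed, day 6 double-negative and day 12 GFP+ cells. These contrasts called 42.1% and 49.2% of all genes. In day 6 double-negative cells 6 of 6 repressors of the epithelial program were higher (median 0.98), with Zeb1 at 0.44 and Zeb2 at 0.93. Of 11 epithelial transcription factors 5 were lower, where 2942 of all 13451 genes were called lower and 2717 higher. Of 21 structure genes 3 were higher and 5 lower (median -0.16), near the share of all genes. Epcam (-0.86) and Spint1 (-1.18) were among the lower. All 8 fibroblast markers were higher (median 0.96) and 5 of 8 pluripotency markers lower (median -1.56). In day 12 GFP+ cells 6 of 6 repressors were higher as well (median 1.49), with Zeb1 from 293 to 485 and Zeb2 from 100.5 to 363.5. Of 21 structure genes 8 were higher and 0 lower (median 0.37), where 3308 of all 13451 genes were called higher and 3316 lower. Among the higher were the keratins Krt18 (1.90) and Krt8 (1.61) and the desmosome gene Dsp (1.07), while Cdh1 stood at 0.11 and Epcam at -0.44. The fibroblast sum was 18375 and 18386 in the day 12 controls and 55278 and 55989 with Ctcf shRNA, and the sum of 5 trophectoderm genes 498 and 537 against 1744 and 1801. The pluripotency sum was lower, 38924 and 39616 against 23053 and 23191, though 0 of 8 of these genes passed. The part of the repressors and of these markers in the Esrp2 values was not tested.

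Averaged over the 11 populations, 7 of the 26 other splicing regulators were higher with Ctcf shRNA and 13 lower (median -0.09, against -0.00 over all genes), in a contrast that called 52.0% of all genes. Among the higher were Mbnl1 (0.29), Celf2 (0.30) and Rbm47 (0.20), and among the lower Srsf1 (-0.33), U2af1 (-0.28) and Rbm24 (-0.55). Qk, Rbfox2 and Ptbp1 did not pass. Of the 13 Esrp target genes 3 were higher and 3 lower (median 0.01), a share near those 52.0%: Osbpl3 (0.38), Fgfr2 (0.32) and Cd44 (0.20) against Scrib (-0.17), Ralgps2 (-0.15) and Magi1 (-0.06).

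At day 10, where CTCF was raised in place of lowered, both Esrp genes stood lower than in the control, though neither passed. The control columns had Esrp1 scores of 1804 and 1660, CTCF overexpression 934 and 1231, and CTCF overexpression with Smarca5 shRNA 1570 and 1137. For Esrp2 the scores were 566 and 568, then 314 and 274, then 549 and 332. For the median gene the control columns differ by less than any other replicate pair (0.327 of the spread expected of counts, against 1.60 to 12.6). They were therefore counted as 1 sample. Scores are not counts, so a low value does not show that the columns come from 1 sample. The mean over genes is 1.72 of the counting spread, and Esrp1 is a gene that differs by more (5.99). With the control treated as a single sample, the spread comes from the treated groups, with 2 residual degrees of freedom. Ctcf stood at 1248 in the control and 5621 ± 723 (SD, n = 2) with overexpression. Against the control, overexpression gave -0.69 for Esrp1 (95% interval -1.45 to 0.07, adjusted p = 0.832) and -0.95 for Esrp2 (-1.87 to -0.02, adjusted p = 0.806), where 8 of 12935 genes were called, 0.0618%. Adding Smarca5 shRNA to CTCF overexpression gave 0.32 and 0.54 (intervals -0.30 to 0.94 and -0.21 to 1.29, both adjusted p = 1, background 0.0773%), and the double treatment against the control -0.37 and -0.41 (both adjusted p = 1, background 0.101%). These 3 contrasts share libraries. Single libraries move the Smarca5 shRNA values: without replicate 1 of the double treatment the first pair is 0.08 and 0.18 and the second -0.61 and -0.77, and without its replicate 2 they are 0.55 and 0.90, and -0.14 and -0.05. Without CTCF overexpression replicate 1 the Esrp1 value of added Smarca5 shRNA is 0.12, and without replicate 2 it is 0.52. With the control columns as 2 samples, CTCF overexpression against the control gave adjusted p = 0.187 for Esrp1 and 0.148 for Esrp2 in limma.

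Beside them, 0 of 21 epithelial structure genes passed with CTCF overexpression (median -0.41, against 0.02 over all genes), and 7 had an unadjusted p below 0.05 in limma, as did 6.08% of all genes (786 of 12935). Cdh1 stood at -0.15 and Epcam at -0.10, and Cldn7 and Rab25 were at -0.96. The keratinocyte sum of 6 genes was 29839 and 29944 in the control columns, 15730 and 18604 with overexpression and 19364 and 20769 with the double treatment. The pluripotency sum was 7349 and 7392, 11901 and 16445, and 9997 and 12212. Their part in the Esrp values was not tested. Of the 26 other splicing regulators 0 passed (median 0.09) and 2 had an unadjusted p below 0.05, near the share of all genes, with Rbm47 at -0.32.

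**Figure D5:**
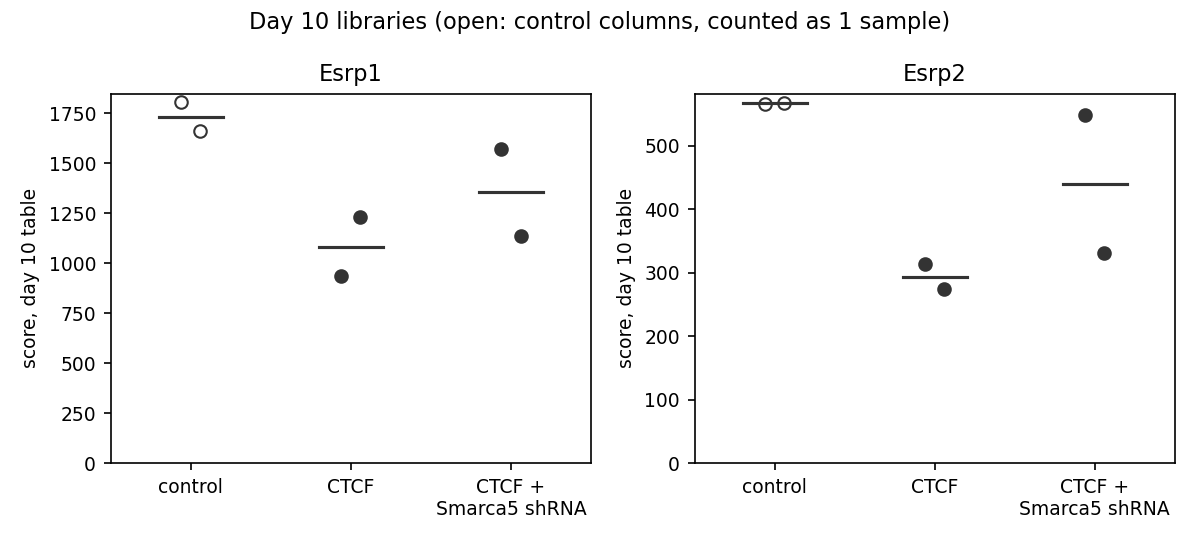
Scores of Esrp1 (left) and Esrp2 (right) at day 10 with a point per library and a line at the mean, on axes that start at 0; the open control points are counted as 1 sample. The CTCF overexpression libraries (934 and 1231, and 314 and 274) lie below the control points, and those with added Smarca5 shRNA spread between 1137 and 1570 and between 332 and 549.

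The authors' deposited comparison tables of day 10 give condition means without naming the conditions, so direction is stated by Ctcf. In the authors' deposited table on CTCF overexpression, the condition with more Ctcf (10177 against 2039) had 1457 against 2168 for Esrp1 and 577 against 1042 for Esrp2. The authors' deposited table gives log2 ratios of -0.57 for Esrp1 and -0.85 for Esrp2, with deposited p-values of 0.0215 and 5.40e-05 whose test and adjustment are not stated. Of its rows above a floor of 0.5, 2.35% had a deposited p below 0.05. In the authors' deposited table on Ctcf shRNA, the condition with less Ctcf (1730 against 2197) had 1446 against 1679 for Esrp1 and 489 against 452 for Esrp2. There the authors' deposited table gives log2 ratios of -0.22 and 0.11, with deposited p-values of 0.00790 and 0.599, and 11.7% of rows had a deposited p below 0.05. The gene 1810019D21Rik, antisense to Esrp2, had 35.5 against 50.4 in the authors' deposited table on overexpression and 29.9 against 42.4 in that on the shRNA.

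MEFs and iPSCs, the start and end of reprogramming, have raw counts. Esrp1 had 0 of 16593659 reads in MEFs, for which a floor of 0.181 CPM was set (3 counts, scaled to the library total). The exact 95% upper limit of those reads is 0.222 CPM. In iPSCs it had 140 of 9912018 reads, or 14.1 CPM (95% exact Clopper-Pearson interval 11.9 to 16.7). With MEFs at that 3-count floor and iPSCs at their measured level, it was 78.1-fold higher in iPSCs. This is not a strict lower bound. The floor lies below the exact MEF limit, and the counting error of the iPSC reads is left out. Esrp2 had 119 reads in MEFs, or 7.17 CPM (5.94 to 8.58), and 141 in iPSCs, or 14.2 CPM (12.0 to 16.8). Its log2 ratio was 0.99 (interval 0.63 to 1.35). Zeb1 had 1838 and 197 reads, Zeb2 1952 and 61, and Cdh1 1 and 39133. Both cell types have a single library and hence no test, and these intervals cover counting error only.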

How the data were processed

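Both score tables hold tag counts that the authors deposited after a normalization that gives all libraries of a table nearly the same total, rounded to whole numbers; the labels do not name it. The MEF and iPSC table holds the authors' deposited raw counts (mm9). The authors' deposited comparison tables hold, without headers, score means, log2 ratios and a p-value, identified from their arithmetic. Per the submitters' processing notes, FastQC, Trim Galore and RSEM were used, versions not given, with GRCm38 for the score tables. RNA came from TRIzol extracts and NEBNext Ultra libraries, per the labels' protocols. Of 56 samples, 4 day 10 shRNA samples are used only through a comparison table.

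Scores are not counts, so log2(score + 1) was modelled by limma 3.58.1 in R 4.3.3, with eBayes variances trended on the mean and a term for each group. Genes needed a score of 10 or more in 2 libraries or more, which all 13451 and 12935 genes met. The fits had 22 and 2 residual degrees of freedom. Repeat rows (819 and 933) were left out. P-values were adjusted over all genes (Benjamini-Hochberg), and a gene is called below 0.05. In simulated data for the day 9 Thy1+ contrast (13451 genes), 81% of genes changed by 1 on the log2 scale and 100% of those changed by 2 were recovered. For CTCF overexpression at day 10 (12935 genes) these shares were 1% and 56%, and for added Smarca5 shRNA 21% and 87%. The simulations changed a small set of well-expressed genes and drew normal noise, so they do not cover levels near 0. The day 10 control columns were averaged because their median gene differs by less than in any other replicate pair.

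The 2 members and the 12 gene lists were chosen with earlier results of these data known. Genes are named by a rule: both members; Ctcf, Smarca5 and a set given by name; the called members of a list with the largest change from day 0 to day 12; and the 5 most alike genes. Other genes printed from a list were chosen after their values were seen. Exon lengths are from GENCODE M21. Alternatives were another pseudocount, quantile normalization, other filters, no trend, a replicate block, each library left out and, at day 10, 6 separate samples.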

Additional observations from a re-analysis of the deposited data

Results flagged for a closer look

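The effect of Ctcf shRNA differed between populations for both genes. At day 9 the effect in SSEA1+ cells minus that in Thy1+ cells was 2.17 for Esrp1 (adjusted p = 6.94e-06, limma) and 1.86 for Esrp2 (adjusted p = 3.87e-09). Over all 11 populations the moderated F was 18.75 for Esrp1 (adjusted p = 5.03e-08) and 26.67 for Esrp2 (adjusted p = 1.83e-09). Groups of 2 libraries are too small for a test of single outlying libraries.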

How the results depend on the processing

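Across 923 recomputed values of 75 results, 896 kept their direction and side of the threshold. These include the setting without a filter, which repeats the main fit because every gene met the filter. With 8 added to the scores, Esrp1 with Ctcf shRNA lost its day 0 call (0.16) and gained one in day 9 SSEA1+ cells (0.54) and in the day 3 difference of effects (1.05). The Esrp1 effect at day 12 minus day 0 (-0.72) passes with genes scoring at least 100 in 2 libraries (adjusted p = 0.0496). It also passes with a replicate block (-0.72, adjusted p = 0.0380). The block changed no other of 72 values. The difference between replicates 1 and 2 correlated between the shRNAs of a population at -0.117 to 0.300. It was over 0.1 in 3 of 11 populations. The main fit does not pair samples by number. This check cannot exclude pairing, since it did not compare the sorted populations of a day. With each library left out, Esrp1 with Ctcf shRNA ranged from 0.29 to 1.29 at day 0, from -0.10 to 0.0509 in day 6 Thy1+ cells and from -0.0194 to 0.17 in day 6 SSEA1+ cells, and its day 12 minus day 0 difference from -1.22 to -0.22. Esrp2 ranged from -0.0753 to 0.24 at day 0, -0.0349 to 0.0381 in day 3 SSEA1+, -0.42 to -0.12 in day 6 Thy1+, -0.11 to 0.00096 in day 6 SSEA1+ and 0.25 to 0.39 in day 12 cells. Its control contrasts ranged from 0.23 to 0.50 (day 3 double-negative minus Thy1+) and 0.24 to 0.35 (day 6 minus day 3 SSEA1+). At day 10 added Smarca5 shRNA ranged from 0.08 to 0.55 for Esrp1 and 0.18 to 0.90 for Esrp2. The F over populations ranged from 14.8 to 35.4 for Esrp1. The reversed values stood near 0 and were not called. Pearson's r of Esrp1 with Esrp2 is 0.46 over 22 means, and Spearman's rho 0.58.

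Counts of called genes moved by over 1.5 times in 15 of 36 comparisons. With Ctcf shRNA they went from 898 to between 227 and 2985 at day 0. On day 3 they went from 541 to between 223 and 634 in Thy1+, from 912 to between 456 and 1029 in SSEA1+ and from 657 to between 285 and 779 in double-negative cells. On day 6 they went from 1936 to between 958 and 2234 in Thy1+ and from 2980 to between 1787 and 3258 in SSEA1+ cells. On day 9 they went from 2641 to between 1572 and 2923 in Thy1+, from 1861 to between 1135 and 2051 in SSEA1+ and from 3763 to between 2192 and 4102 in double-negative cells. The differences of effects went from 27 to between 10 and 50 (day 3) and from 764 to between 413 and 933 (day 6). The control contrast of double-negative with Thy1+ cells on day 3 went from 3801 to between 2461 and 4091. At day 10 the counts went from 8 to between 0 and 141, from 10 to between 0 and 44 and from 13 to between 0 and 74. The causes were not tested. Scores carry no read depth, so precision near 0 is unknown, and 2 libraries per group limit every interval.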
